A study of Mus musculus with 8 samples.

Results

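Mitophagy, the removal of damaged or surplus mitochondria by autophagy, was followed through the messenger RNA of 9 genes in activated mouse CD8+ T cells: Pink1, Bnip3, Bnip3l, Fundc1, Sqstm1, Optn, Map1lc3b, Ulk1 and Tbk1. They were found by gene symbol in the authors' table of transformed values, then joined to the count table by gene ID. All 9 are among the 45777 genes of the count table, and all 9 passed the filter on low counts that left 16750 genes to test. CD8+ T cells were taken from the spleen and lymph node of C57BL/6 mice and stimulated through CD3 and CD28 by antibody. Over 48 hours they received EnPGC-1, Ctrl PIP (by its name a control compound), SGC-CBP30 (which blocks the bromodomains of CBP and p300, a pair of acetyltransferases) or the vehicle DMSO. Each of the 4 groups had 2 libraries, 8 in all. Activation through the T cell receptor and costimulation were common to all groups, and a group without activation was not analysed here. The design text of the series lists all 3 compounds as PIPs, and no doses are given, so compounds could not be matched by dose. Whether replicates are separate animals or separate cultures is not stated. The p-values judge a group difference against the scatter of these libraries, which may be technical alone. The series title names an induced formation of new mitochondria; the 9 genes belong to the removal of existing ones.

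As background, mitochondria are marked for removal by separate routes. In the ubiquitin route, the kinase PINK1 builds up on a mitochondrion that has lost its membrane potential and sets off the tagging of its surface with ubiquitin. Adaptors such as p62 (Sqstm1) and optineurin (Optn) then tie the ubiquitin chains to the growing autophagosome, and the kinase TBK1 strengthens their binding. In the receptor route, BNIP3, NIX (Bnip3l) and FUNDC1 sit in the outer mitochondrial membrane and bind the autophagosome protein LC3 directly. BNIP3 is a classical target of hypoxia-inducible factor, and NIX is known for clearing mitochondria from maturing red cells. ULK1 starts autophagosome formation, and LC3B (Map1lc3b) is built into the membrane. In CD8+ T cells, BNIP3 and NIX are known for mitophagy during the formation of memory cells.

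None of the 9 genes passed the threshold in any of the 6 comparisons between groups. Most were expressed at steady, moderate levels in all 8 libraries. Levels are given as CPM, the counts per 1000000 counts of a library after TMM scaling of the library sizes. Between genes they are compared only as CPM per kilobase of the longest annotated transcript. On that scale the mean level over 8 libraries was highest for Sqstm1, at 60.5 CPM per kilobase (55.1 to 68.1 over libraries). Bnip3l followed at 51.7 (42.5 to 65.3), Pink1 at 46.9 (37.5 to 55.5) and Map1lc3b at 30.2 (26.4 to 38.8). Each of these genes overlapped its neighbour in the order. Bnip3 came next at 23.9 CPM per kilobase, but its range of 4.90 to 57.2 overlapped that of every other gene except Optn. Tbk1 stood at 22.6 CPM per kilobase (21.5 to 25), above Fundc1 at 14.2 (12.4 to 16.9) with no overlap, while Fundc1 and Ulk1 (12.2, from 7.84 to 16.6) overlapped. Optn was the lowest at 1.13 CPM per kilobase (0.484 to 3.05) and overlapped no other gene.

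**Figure D1:**
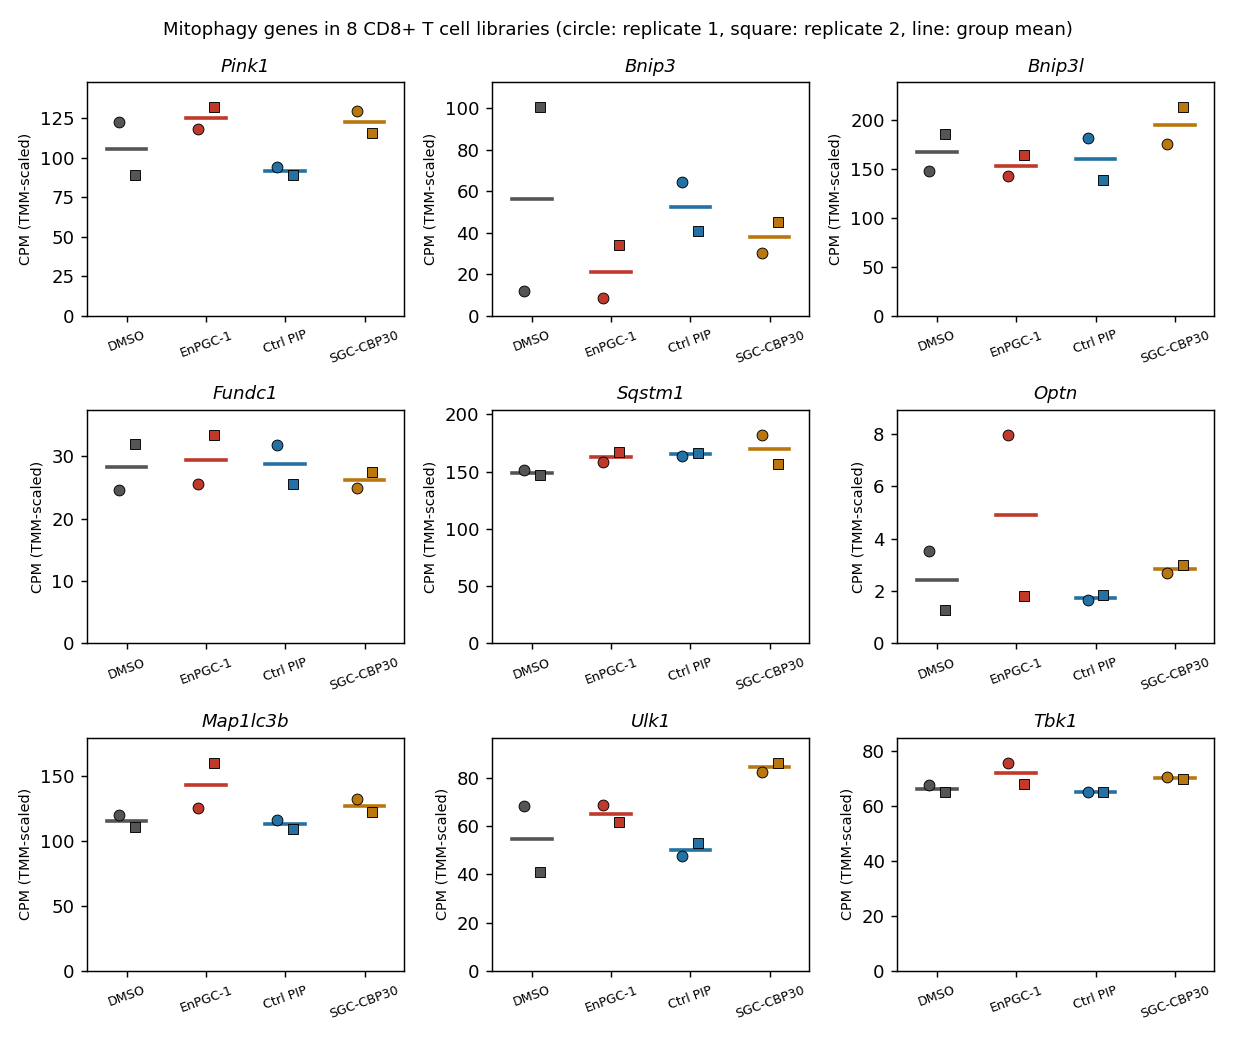
CPM of each mitophagy gene (vertical axis, linear from 0) by treatment group; circles are replicate 1, squares replicate 2 and lines group means. Bnip3 spans 8.60 to 100.5 CPM, with its lowest values in the first replicates of EnPGC-1 and DMSO, while Tbk1 spans 64.9 to 75.7 CPM.

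Total counts ranged from 38890043 to 55491261 per library. The libraries of DMSO and of EnPGC-1 stood far apart from their replicates: among genes with a mean of at least 1 CPM, the median absolute log2 difference between replicates was 0.65 and 0.47, against 0.16 with Ctrl PIP and 0.16 with SGC-CBP30. Ribosomal RNA (Rn18s-rs5) stood at 10070 CPM in DMSO replicate 2, at 9044 CPM in EnPGC-1 replicate 2 and at 1119 to 2311 CPM in the other 6 libraries. The libraries also differed in a trend on transcript length: the Spearman rho across genes between a gene's deviation from its mean and its length ran from -0.61 to 0.56, a description of libraries set against each other. Markers of the labelled cell type were high in all libraries, with Cd8a at 904 to 1240 CPM and a sum of 2670 to 3980 CPM over 5 CD8 T cell markers. CD4 T cell markers (3 genes) summed to 36.8 and 14.5 CPM with DMSO, 29.4 and 14.1 with EnPGC-1 and 18.0 to 18.8 in the other libraries. B cell markers (6 genes) summed to 37.6 to 50.2 CPM with DMSO and EnPGC-1, 21.2 to 35.7 with Ctrl PIP and 18.4 to 22.2 with SGC-CBP30, and of these 9 marker genes only Ebf1 was at 0, in 1 library. NK cell markers (3 genes) summed to 64.5 and 73.7 CPM with DMSO and 70.7 and 70.9 with Ctrl PIP, but 49.1 and 40.0 with EnPGC-1 and 41.9 and 45.4 with SGC-CBP30, without overlap. Eomes, which activated CD8 T cells also express, held nearly all of that sum (40.0 to 73.1 CPM), and Ncr1 was at 0 in 5 libraries. Myeloid markers (5 genes) summed to 2.25 to 9.79 CPM, dendritic cell markers (4 genes) to 0 to 1.53 CPM and erythroid markers (5 genes) to 1.14 to 10.6 CPM. In bulk RNA, fewer cells of a type and less RNA per cell cannot be told apart.

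Bnip3, the hypoxia-responsive receptor, lies at chr7:138890836-138909506 on the minus strand (GRCm38.p6, the assembly called mm10), where a pseudogene, Gm18258, overlaps it. Its replicates differed 8.54-fold with DMSO and 3.96-fold with EnPGC-1, but 1.57-fold and 1.5-fold with Ctrl PIP and SGC-CBP30, beside group means from 21.3 to 56.1 CPM. With DMSO it was at 11.8 CPM in replicate 1 and 100.5 in replicate 2, and with EnPGC-1 at 8.60 and 34.0 CPM. With Ctrl PIP it was at 64.3 and 40.9 CPM, and with SGC-CBP30 at 30.3 and 45.3 CPM. The DMSO libraries thus enclosed those of Ctrl PIP and SGC-CBP30, and both EnPGC-1 libraries lay below both Ctrl PIP libraries. The highest library was 11.7 times the lowest, and 2.06% of the 12651 genes with a mean of at least 1 CPM had a log2 range as wide (3.54) or wider. Against DMSO, the log2 fold change was -1.40 with EnPGC-1 (95% interval -3.82 to 1.02), -0.57 with SGC-CBP30 (-2.95 to 1.81) and -0.09 with Ctrl PIP (-2.47 to 2.28). Without replicate 2 of DMSO alone, the differences from DMSO were 0.86 with EnPGC-1, 1.68 with SGC-CBP30 and 2.16 with Ctrl PIP, and without replicate 2 of Ctrl PIP the last was 0.20. Between libraries of the same number EnPGC-1 was the lower in both, and its difference from DMSO was -1.56 without the number 1 libraries of both groups and -0.45 without their number 2 libraries.

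The hypoxia-inducible genes, 15 known targets of hypoxia-inducible factor, divided the libraries in the way Bnip3 did. Replicate 2 exceeded replicate 1 for 14 of 15 with DMSO (median log2 difference 1.75, Bnip3 3.09), 12 of 15 with EnPGC-1 (0.87, Bnip3 1.98) and 15 of 15 with SGC-CBP30 (0.32, Bnip3 0.58). With Ctrl PIP 1 of 15 did (median -0.39, Bnip3 -0.65). Over all genes tested the shares that were higher in replicate 2 were 49.2%, 49.2%, 49.8% and 50.5%, in the same order of groups. Ankrd37, an ankyrin repeat gene induced by hypoxia, was at 3.76 and 42.7 CPM in the DMSO libraries and 3.08 and 20.2 in those of EnPGC-1. Pgk1, a glycolytic kinase, was at 447 and 2080 CPM with DMSO and 240 and 1240 with EnPGC-1. Both were chosen for display after their values were seen. Hk2, the hexokinase of activated T cells and the gene of the list with the smallest p for EnPGC-1 against DMSO, was lower in both EnPGC-1 libraries (12.8 and 18.2 CPM) than in both DMSO libraries (24.2 and 73.6 CPM). Its log2 fold change was -1.66 (SE 0.51, edgeR adjusted p = 0.998). With a smooth trend on length and GC content taken out of each library, the Bnip3 gap between replicates was 2.78 with DMSO and 1.75 with EnPGC-1. The higher ribosomal RNA and the lower sum of CD4 markers stood in the same replicate 2 libraries as the higher Bnip3, and their part in the result was not tested.

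**Figure D2:**
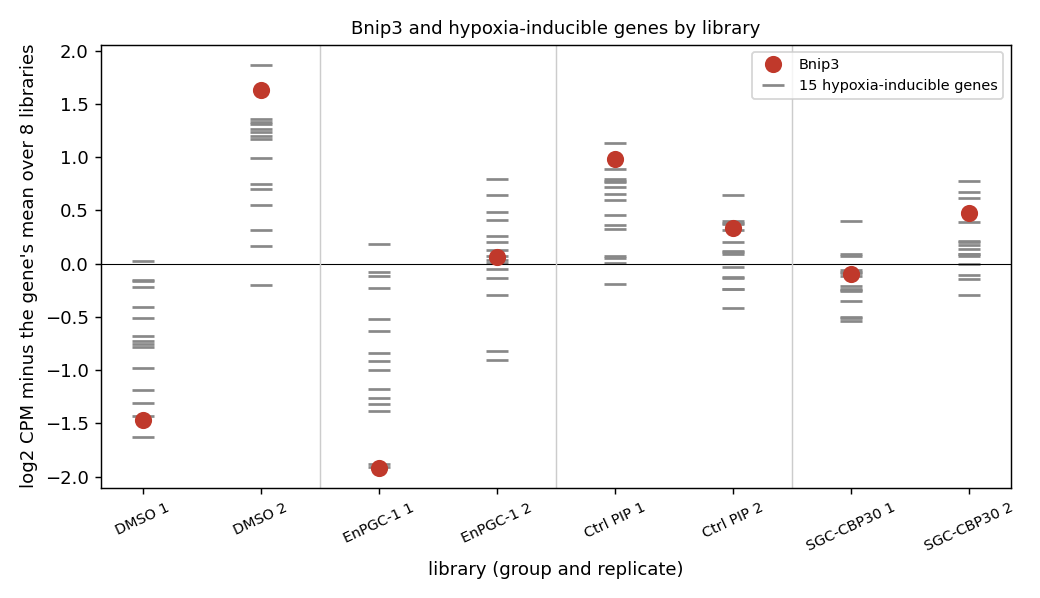
Log2 CPM minus each gene's mean over the 8 libraries (vertical axis) for Bnip3 (red points) and 15 hypoxia-inducible genes (grey dashes) in each library (horizontal axis, group and replicate). Bnip3 stands at -1.46 and 1.63 in the DMSO libraries and at -1.92 and 0.07 in those of EnPGC-1, and most of the hypoxia-inducible genes lie on the same side of 0 in those of DMSO.

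Promoter sequence is shown for Bnip3, the gene with the widest range between libraries, and for Ulk1, the member with the smallest p in any comparison. Each is the 250 bases before 1 transcription start in RefSeq (GRCm38.p6); for Ulk1 39 of these bases lie inside the annotated gene, whose outermost start is farther upstream, and for Bnip3 0 do. They run 5′ to 3′ on the gene's strand (minus for both), at chr7:138909507-138909756 for Bnip3 and chr5:110810082-110810331 for Ulk1. Capitals mark the core letters of the hypoxia response element, ACGTG or GCGTG, on either strand.
Bnip3: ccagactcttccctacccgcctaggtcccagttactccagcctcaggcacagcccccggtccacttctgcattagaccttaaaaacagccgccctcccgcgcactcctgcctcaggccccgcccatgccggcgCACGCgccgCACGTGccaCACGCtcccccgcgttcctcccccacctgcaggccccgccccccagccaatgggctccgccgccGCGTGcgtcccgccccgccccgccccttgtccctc
Ulk1: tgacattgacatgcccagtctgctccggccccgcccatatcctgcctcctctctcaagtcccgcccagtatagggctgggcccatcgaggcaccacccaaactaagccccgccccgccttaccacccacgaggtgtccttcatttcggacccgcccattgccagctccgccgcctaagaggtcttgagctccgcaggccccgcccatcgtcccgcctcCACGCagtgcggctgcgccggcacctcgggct
The Bnip3 window held 5 matches, 2 of ACGTG and 3 of GCGTG, and the 2 ACGTG matches are the overlapping strands of 1 CACGTG. The Ulk1 window held 1 match, of GCGTG. Among 32851 RefSeq promoter windows of this length, 16.6% held ACGTG, 28.2% held GCGTG and 6.02% held CACGTG. Of the 8 mitophagy genes with a window in the table, Bnip3 was the only gene with ACGTG, while GCGTG was also found for Pink1, Optn, Map1lc3b, Ulk1 and Tbk1. Bnip3l had no window there. A match is a description of letters and not of binding.

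Bnip3l, which encodes NIX, lies at chr14:66985238-67008877, and a pseudogene with its own entry, Bnip3l-ps, could share its reads. It was at 148.3 and 185.5 CPM with DMSO, 142.4 and 163.7 under EnPGC-1, 181.2 and 138.5 under Ctrl PIP, and 175.8 and 212.9 with SGC-CBP30. Both EnPGC-1 libraries lay below both SGC-CBP30 libraries, and all other pairs of groups overlapped. The log2 fold change of EnPGC-1 against SGC-CBP30 was -0.34 (95% interval -0.90 to 0.21), and against DMSO it was -0.12 (-0.68 to 0.43). Fundc1, the receptor on the X chromosome (chrX:17519967-17572329), was at 24.6 and 32.0 CPM with DMSO and 25.5 and 33.5 with EnPGC-1. It was at 31.8 and 25.6 CPM under Ctrl PIP and 25.01 and 27.5 under SGC-CBP30. All 4 groups of Fundc1 overlapped, and its log2 fold changes lay between -0.13 and 0.17 over the 6 comparisons. For both genes, replicate 2 was the higher with DMSO, EnPGC-1 and SGC-CBP30 and the lower with Ctrl PIP, the same order as for Bnip3. With the trends on length and GC content taken out, the gap of Fundc1 was -0.01 with SGC-CBP30 and 0.18 with DMSO, so that order did not hold for Fundc1. Without that step their gaps were far smaller than that of Bnip3, at 0.32 (Bnip3l) and 0.38 (Fundc1) log2 units with DMSO.

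In the ubiquitin route, Pink1 (chr4:138313409-138326296) was at 122.5 and 89.0 CPM with DMSO, 118.2 and 131.9 under EnPGC-1, 94.2 and 89.2 under Ctrl PIP, and 129.8 and 115.7 with SGC-CBP30. Both libraries of EnPGC-1 and of SGC-CBP30 exceeded both of Ctrl PIP, while the DMSO libraries overlapped every other group. The log2 fold change against Ctrl PIP was 0.45 with EnPGC-1 (95% interval -0.06 to 0.96) and 0.42 with SGC-CBP30 (-0.09 to 0.93), and EnPGC-1 against SGC-CBP30 gave 0.03 (-0.48 to 0.54).

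The adaptor Sqstm1 (chr11:50200152-50210820) was at 151.1 and 147.2 CPM with DMSO, 158.7 and 167.4 under EnPGC-1, 163.6 and 166.5 under Ctrl PIP, and 182.1 and 157.1 with SGC-CBP30. All 6 libraries with a compound exceeded both DMSO libraries, by little. The log2 fold change against DMSO was 0.13 with EnPGC-1 (95% interval -0.29 to 0.55), 0.15 with Ctrl PIP (-0.27 to 0.56) and 0.18 with SGC-CBP30 (-0.23 to 0.60). These 3 comparisons share the DMSO libraries. Tbk1, the kinase that phosphorylates the adaptors (chr10:121546455-121586794), was the steadiest member. It was at 67.5 and 64.9 CPM with DMSO, 75.7 and 67.8 under EnPGC-1, 64.9 and 65.1 under Ctrl PIP, and 70.4 and 69.8 with SGC-CBP30. Its log2 range over 8 libraries was 0.22, and 99.0% of the genes with a mean of at least 1 CPM had a range as wide or wider. Tbk1 with EnPGC-1 and with SGC-CBP30 lay above both DMSO and both Ctrl PIP libraries, with log2 fold changes of 0.12 (-0.28 to 0.51) and 0.08 (-0.31 to 0.47) against DMSO.

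Optn, which encodes the adaptor optineurin (chr2:5020521-5064399), was the least abundant and, after Bnip3, the most variable. It had 149 and 64 counts with DMSO (3.54 and 1.26 CPM), 328 and 98 with EnPGC-1 (7.97 and 1.82 CPM), 82 and 95 under Ctrl PIP (1.64 and 1.83 CPM) and 145 and 160 under SGC-CBP30 (2.67 and 2.98 CPM). Replicate 1 of EnPGC-1 stood alone at the top, and replicate 2 of the same group lay among the Ctrl PIP values. The log2 fold change of EnPGC-1 was 1.02 against DMSO (95% interval -0.80 to 2.85) and 1.49 against Ctrl PIP (-0.35 to 3.34). Without replicate 1 of EnPGC-1 the value against DMSO was -0.39 and that against Ctrl PIP 0.06. Between libraries of the same number EnPGC-1 exceeded DMSO in both, with a difference of 0.53 without the number 1 libraries of both groups and 1.17 without their number 2 libraries. Optn ran opposite to Bnip3 within these groups: replicate 2 minus replicate 1 was -1.46 log2 units with DMSO and -2.11 with EnPGC-1.

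Of the autophagy machinery, Ulk1 (chr5:110784489-110810120) had the smallest p among the 9 genes. It was at 82.3 and 86.4 CPM with SGC-CBP30, above all 6 other libraries. Ulk1 was at 68.5 and 40.9 CPM with DMSO, 68.7 and 61.7 under EnPGC-1, and 47.8 and 52.9 under Ctrl PIP. The mean was 84.4 ± 2.88 CPM with SGC-CBP30 (SD, n = 2) against 54.7 ± 19.6 with DMSO, 65.2 ± 5 with EnPGC-1 and 50.3 ± 3.6 with Ctrl PIP. The log2 fold change of SGC-CBP30 was 0.63 against DMSO (95% interval -0.01 to 1.26, edgeR adjusted p = 0.943) and 0.75 against Ctrl PIP (0.11 to 1.38, edgeR adjusted p = 0.871). Ulk1 was the only member with an unadjusted p under 0.05 in any comparison, at 0.0282 for SGC-CBP30 against Ctrl PIP. In a fit of those 4 libraries alone, Ulk1 (0.74, edgeR adjusted p = 0.0139) and Pink1 (0.42, edgeR adjusted p = 0.0462) passed the threshold, as did 15.8% of the 15660 genes tested there. Beside this, both SGC-CBP30 libraries lay at the long-transcript end of the length trend (rho 0.54 and 0.48) and both Ctrl PIP libraries at the other (-0.53 and -0.20), and the longest Ulk1 transcript, of 5213 bases, is the longest among the 9 genes. With the trends on length and GC content taken out, the Ulk1 difference was 0.54 against Ctrl PIP and 0.49 against DMSO, and the gap between the DMSO replicates was -0.12 in place of -0.75 log2 units. B cell markers summed to 18.4 and 22.2 CPM with SGC-CBP30, against 21.2 to 50.2 CPM elsewhere. NK cell markers, mostly Eomes, summed to 41.9 and 45.4 CPM with SGC-CBP30. Their sum was 64.5 to 73.7 CPM with DMSO and Ctrl PIP, but 49.1 and 40.0 CPM with EnPGC-1. Whether the length trend or these markers had a part in the result was not tested.

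Map1lc3b, which encodes LC3B (chr8:121590438-121598760, where Zcchc14 overlaps it), was at 119.9 and 110.9 CPM with DMSO, 125.7 and 160.7 under EnPGC-1, 116.7 and 109.2 under Ctrl PIP, and 132.4 and 122.7 with SGC-CBP30. Both EnPGC-1 libraries and both SGC-CBP30 libraries exceeded the 4 libraries of DMSO and Ctrl PIP. The log2 fold change of EnPGC-1 was 0.31 against DMSO (95% interval -0.15 to 0.78) and 0.34 against Ctrl PIP (-0.12 to 0.81). Replicate 2 of EnPGC-1 carried most of it: without that library the values were 0.12 and 0.15. With the trends on length and GC content taken out of all 8 libraries, the EnPGC-1 values were 0.273 and 0.292. Those of SGC-CBP30 were 0.145 against DMSO and 0.175 against Ctrl PIP, and 0.0594 and 0.0777 with the trends taken out.

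**Figure D3:**
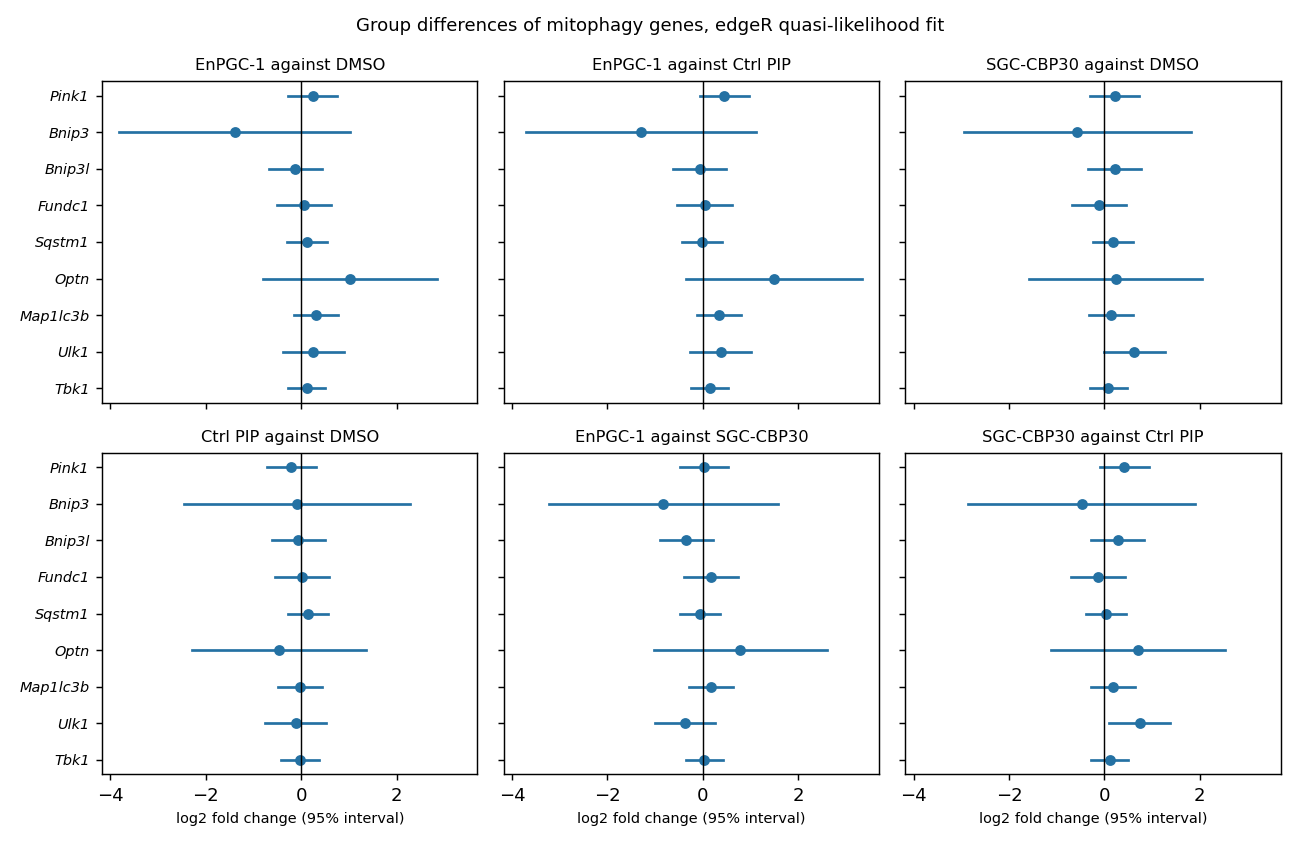
Log2 fold change (horizontal axis, points) with 95% intervals (lines) of the 9 mitophagy genes in the 6 comparisons between groups, from the edgeR fit of all 8 libraries. Every interval includes 0 except that of Ulk1 for SGC-CBP30 against Ctrl PIP, and the intervals of Bnip3 and Optn are the widest.

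The comparisons can be read across the genes. EnPGC-1 against DMSO sets the compound beside its vehicle. Of the 9 genes, 7 had a log2 fold change above 0 (50.2% of all genes tested did), with a median of 0.13 beside 0.00 over all genes. edgeR's quasi-likelihood test called 0 of 9 at an adjusted p under 0.05, where 0% of all genes tested were called in either direction. At an unadjusted p under 0.05 it was 0 of 9 beside 2.61% of all genes, and DESeq2 called 0 of 9 (0.077% of the 23386 genes with a p there). The groups did not overlap for 3 of 9, Sqstm1, Map1lc3b and Tbk1, all higher with EnPGC-1 (9.83% of all genes tested were), and for 0 of 9 in the lower direction (9.24%).

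Compared with the control compound Ctrl PIP, EnPGC-1 had 6 of 9 above 0 (54.1% of all genes) and a median of 0.14 beside 0.05. Pink1, Map1lc3b, Ulk1 and Tbk1 were higher in both EnPGC-1 libraries (4 of 9, beside 20.7% of all genes), and Bnip3 was lower (1 of 9, beside 21.7%). edgeR and DESeq2 called 0 of 9, beside 0% of all genes with edgeR and 0.162% with DESeq2, and 0 of 9 had an unadjusted p under 0.05 (4.48% of all genes). The intervals leave room for a difference in either direction: for Bnip3 from 0.0761 to 2.16 times the Ctrl PIP level, and for Sqstm1 from 0.740 to 1.32 times.

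SGC-CBP30 against DMSO gave 7 of 9 above 0 (47.2% of all genes) with a median of 0.18 beside -0.03. Sqstm1, Map1lc3b, Ulk1 and Tbk1 were higher in both SGC-CBP30 libraries (4 of 9, beside 16.2% of all genes) and 0 of 9 lower (14.5%). edgeR and DESeq2 called 0 of 9, beside 0% of all genes with edgeR and 0.269% with DESeq2, and 0 of 9 had an unadjusted p under 0.05 (4.39%). In SGC-CBP30 against Ctrl PIP, Pink1, Optn, Map1lc3b, Ulk1 and Tbk1 were higher in both SGC-CBP30 libraries (5 of 9, beside 31.5% of all genes), and 0 of 9 lower (30.2%). There 7 of 9 were above 0 (51.0%) with a median of 0.17 beside 0.01. In that comparison edgeR and DESeq2 called 0 of 9 in the fit of 8 libraries (0% of genes with edgeR, 0.133% with DESeq2), with 1 of 9 at an unadjusted p under 0.05 (3.99%). These comparisons and those of EnPGC-1 share the DMSO or the Ctrl PIP libraries.

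Ctrl PIP against DMSO had the fewest members apart, with 2 of 9 above 0 (41.5% of all genes), a median of -0.06 beside -0.05 and log2 fold changes from -0.47 (Optn) to 0.15 (Sqstm1). Sqstm1 alone did not overlap, higher with Ctrl PIP (1 of 9, beside 8.34%), with 0 of 9 lower (7.83%). EnPGC-1 against SGC-CBP30 had 5 of 9 above 0 (52.8%) and a median of 0.03 beside 0.02. Bnip3l and Ulk1 were lower in both EnPGC-1 libraries (2 of 9, beside 14.7% of all genes), and 0 of 9 were higher (13.2%). The Ulk1 difference there was -0.37 (95% interval -1.01 to 0.26). edgeR and DESeq2 called 0 of 9 in both comparisons, beside 0% of all genes with edgeR and 0.00855% and 0.0684% with DESeq2, and 0 of 9 had an unadjusted p under 0.05 (0.597% and 2.03% of all genes). A test of any difference among the 4 groups also called 0 of 9 with edgeR (0% of all genes), with 0 of 9 at an unadjusted p under 0.05 (2.47%). DESeq2 called 0 of 9 there too (0.372% of genes).

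Because the DMSO and EnPGC-1 replicates lay far apart, the fit was repeated without both libraries numbered 1, or both numbered 2, of those groups. This choice was made after seeing the data. Each of those groups then has 1 library, so the spread comes from Ctrl PIP and SGC-CBP30 alone. Their median replicate differences were 0.16 and 0.16, against 0.65 with DMSO and 0.47 with EnPGC-1. Tests with DMSO or EnPGC-1 in this fit therefore cannot decide a group difference, and only log2 fold changes are given. Without the libraries numbered 1, edgeR called Bnip3 for EnPGC-1 against DMSO (1 of 9, beside 6.44% of genes) at -1.56 (edgeR adjusted p = 0.0498). Without those numbered 2 it was -0.45 (edgeR adjusted p = 0.81) and 0 of 9 were called (0% of genes). For SGC-CBP30 against DMSO, leaving out the libraries numbered 1 gave calls for Pink1, Bnip3, Optn and Ulk1 (4 of 9, beside 37.1%), with Ulk1 at 1.05 (edgeR adjusted p = 0.00268), and leaving out those numbered 2 gave 0 of 9 (0.0862%), with Ulk1 at 0.30 (edgeR adjusted p = 0.349). For EnPGC-1 against Ctrl PIP, Bnip3, Optn and Ulk1 were called without the libraries numbered 2 (3 of 9, beside 29.8%) and 0 of 9 without those numbered 1 (0.241%). Optn was then at 2.20 (edgeR adjusted p = 0.00677) and 0.07, respectively. For Ctrl PIP against DMSO, Bnip3 was called without the libraries numbered 2 (1 of 9, beside 13.6%), and for EnPGC-1 against SGC-CBP30 Bnip3 and Optn were (2 of 9, beside 5.07%), with 0 of 9 in both without those numbered 1 (0.00588% of genes in each). In the comparisons between 2 groups named so far, the values given thus differed in size, and some in sign, with the library kept. For SGC-CBP30 against Ctrl PIP, where both groups keep their 2 libraries, Ulk1 was at 0.75 and 0.74. That likeness was fixed in advance, since the same libraries are compared, and adds no support. With the length and GC offset in the fit of 8 libraries the value was 0.54 (edgeR adjusted p = 0.894).

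The wider pathway was read from lists of genes around the 9. Of other mitophagy receptors and adaptors, 5 of 9 were above 0 with EnPGC-1 against DMSO (median 0.01) and 6 of 9 with SGC-CBP30 (median 0.17), and none of these was called. Phb2, an inner membrane protein that binds LC3, was at 133 and 219 CPM with EnPGC-1 against 176 and 355 with DMSO (log2 fold change -0.59, SE 0.38). Nbr1, a cargo adaptor akin to p62, was at 122 and 114 CPM with SGC-CBP30 against 105 and 69.8 with DMSO (0.44, SE 0.24). Of 15 tested genes of the ubiquitin arm, 7 were above 0 with EnPGC-1 and 7 with SGC-CBP30 (medians -0.03 and -0.07), and 0 were called. Usp30, a mitochondrial deubiquitinase that opposes mitophagy, had 0.34 (SE 0.26) with EnPGC-1. Marchf5, a ubiquitin ligase of the outer mitochondrial membrane, had -0.31 (SE 0.17) with SGC-CBP30.

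Autophagy initiation genes, the partners of Ulk1, had more members above 0 than below in both comparisons. Of 17, 14 were above 0 with EnPGC-1 against DMSO (median 0.12) and 14 with SGC-CBP30 against DMSO (median 0.27), beside 50.2% and 47.2% of all genes, and 0 were called. Atg14, a subunit of the lipid kinase complex, was at 21.2 and 15.9 CPM with EnPGC-1 against 17.7 and 10.2 with DMSO (0.41, SE 0.31). Atg9a, the membrane protein that seeds autophagosomes, was at 60.8 and 57.0 CPM with SGC-CBP30 against 48.9 and 35.9 with DMSO (0.47, SE 0.20), above every other library as Ulk1 was. Against Ctrl PIP, SGC-CBP30 had 15 of 17 above 0 (51% of all genes) with a median of 0.36 beside 0.01. The SGC-CBP30 libraries lay at the long-transcript end of the length trend (rho 0.54 and 0.48) and those of Ctrl PIP at the other (-0.53 and -0.20). The replicates of DMSO (0.56 and -0.61) and of EnPGC-1 (0.49 and -0.52) lay at opposite ends. The part of that trend in these counts was not tested. Of the 14 genes of ATG8 proteins and their conjugation, 9 were above 0 with EnPGC-1 and 6 with SGC-CBP30 (medians 0.05 and -0.08). Atg12, a ubiquitin-like conjugate, was at 67.2 and 78.5 CPM with EnPGC-1 against 62.0 and 54.1 with DMSO (0.33, SE 0.18), and Atg3, the conjugating enzyme of LC3, had -0.34 (SE 0.20) with SGC-CBP30.

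Downstream, 14 of 20 genes of autophagosome fusion and the lysosome were above 0 with EnPGC-1 and 13 with SGC-CBP30 (medians 0.08 and 0.11). Ctsl, a lysosomal protease, was at 15.4 and 15.2 CPM with EnPGC-1 against 12.9 and 9.25 with DMSO (0.47, SE 0.26). Atp6v1h, a subunit of the proton pump, had -0.46 (SE 0.29) with SGC-CBP30. Of 8 partners of TBK1, 5 were above 0 with EnPGC-1 and 3 with SGC-CBP30. Tbkbp1, which encodes a TBK1-binding scaffold, had the smallest p in both. It was at 8.77 and 13.8 CPM with EnPGC-1 and 13.9 and 9.85 with SGC-CBP30, all below 18.3 and 25.8 with DMSO. Its log2 fold changes were -0.97 (SE 0.36, edgeR adjusted p = 0.998) and -0.90 (SE 0.36, edgeR adjusted p = 0.943), and both share the DMSO libraries.

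Of 10 regulators of autophagy and mitophagy genes, 6 were above 0 with EnPGC-1 and 9 with SGC-CBP30 (medians 0.05 and 0.20). Nfe2l2, which encodes the oxidative stress factor NRF2, was at 58.5 and 47.2 CPM with EnPGC-1 against 43.7 and 34.0 with DMSO (0.44, SE 0.22) and had 0.24 (SE 0.22) with SGC-CBP30. Of 9 target genes of NRF2, a list that bears on Sqstm1 as a known target, 6 were above 0 with EnPGC-1 and 3 with SGC-CBP30 (medians 0.34 and -0.15). The first median was 0.34 also with Me1, which had 0 counts with EnPGC-1, at its bound. Nqo1, a quinone reductase, was at 7.48 and 1.39 CPM with EnPGC-1 against 2.28 and 0.751 with DMSO (1.55, SE 0.85), and Prdx1, a peroxidase, had -0.68 (SE 0.47) with SGC-CBP30. Of the hypoxia-inducible genes most were below 0, with 2 of 15 above 0 for EnPGC-1 (median -0.49) and 4 of 15 for SGC-CBP30 (median -0.18). Egln3, an oxygen-sensing hydroxylase, was at 11.2 and 13.1 CPM with SGC-CBP30 against 14.4 and 40.5 with DMSO (-1.18, SE 0.56). No gene of these lists was called.

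**Figure D4:**
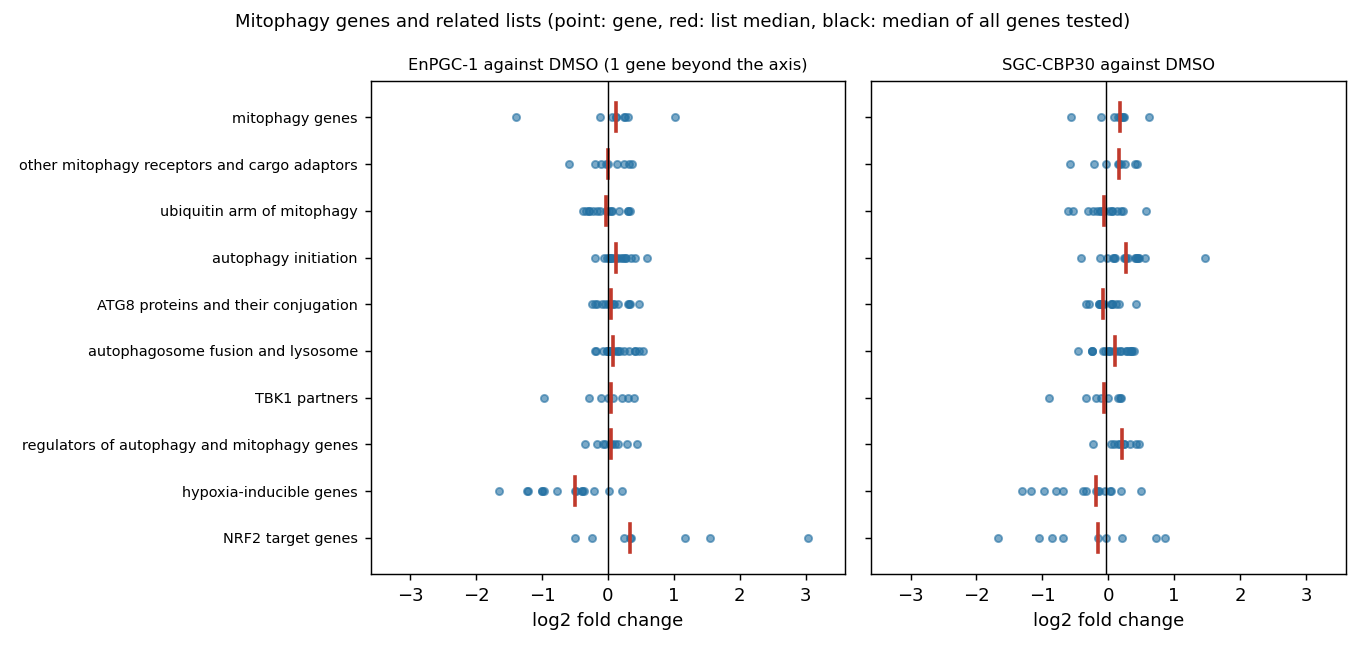
Log2 fold change (horizontal axis) of genes (points) in the mitophagy genes and 9 related lists (rows), for EnPGC-1 against DMSO (left) and SGC-CBP30 against DMSO (right). Me1, of the NRF2 target genes, lies beyond the axis on the left and is not drawn there. Red bars are list medians and the black line is the median of all genes tested; the hypoxia-inducible genes have a median of -0.49 on the left and the initiation genes 0.27 on the right.

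Genes with the most similar profile were sought for the 3 members with the widest range, by the root mean square (RMS) difference between centred log2 CPM profiles over 8 libraries, among genes with a mean of at least 10 CPM. For Bnip3 they were Tpi1 (0.17), which encodes a glycolytic isomerase, Gm6560 (0.23) and Pgk1-rs7 (0.26), a sequence related to Pgk1 that could share its reads. Tpi1 was at 213 and 1370 CPM with DMSO and 104 and 529 with EnPGC-1. Bnip3 itself had an RMS deviation of 1.11 from its own mean, so these profiles are close. For Optn, with an RMS deviation of 0.77, they were Atf6 (0.20), a transcription factor of the unfolded protein response, 2010016I18Rik (0.24) and Eml5 (0.25). For Ulk1, with 0.35, they were Mindy2 (0.06), a deubiquitinase, Ablim1 (0.09), an actin-binding protein, and Map3k5 (0.09), a stress kinase. Ablim1 was at 1220 and 1200 CPM with SGC-CBP30 and 598 to 1160 CPM in the other 6 libraries. The libraries share the length trend described above, so likeness over 8 libraries is a description only.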

How the data were processed

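RNA-seq was made from 8 libraries of activated mouse CD8+ T cells, 2 per group. The authors deposited gene counts and a table of transformed values, of which only the gene symbols were used. HISAT2, StringTie, DESeq2 and the mm10 build are named per the submitters' processing notes; their roles and versions, the counting and its strand setting were not given in the sources used here, so overlapping genes may share reads. Other columns of per-sample values numbered 0.

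Counts as deposited by the authors were fitted with edgeR 4.0.16 (R 4.3.3): TMM scaling, filterByExpr by group, glmQLFit with robust estimation and glmQLFTest over all 8 libraries, with 4 residual degrees of freedom and Benjamini-Hochberg adjustment over 16750 genes. Called means an adjusted p under 0.05; intervals are 95%. The common coefficient of variation was 0.415. Simulated counts with known changes were used to test the scripts. No replicate pair was identical, and all differed by more than counting noise.

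The members and lists were chosen with earlier results of these data known. Named are all members, per list the gene with the smallest p against DMSO for EnPGC-1 and for SGC-CBP30 (mean of at least 1 CPM), and the 3 most similar genes for each of the 3 members with the widest range. Alternatives were DESeq2 1.42.0, its size factors, no filter, no robust estimation, a replicate block, 4 libraries only, each library left out, and a length and GC offset (mgcv 1.9-3; 92.2% of tested genes had a length). A gene of the ubiquitin arm list is not reported here.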

Additional observations from a re-analysis of the deposited data

How the results depend on the processing

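Of the 54 log2 fold changes (9 genes, 6 comparisons), 26 kept their sign in all 18 alternatives. Size factors from DESeq2, the DESeq2 test, no filter on low counts and no robust estimation left every sign and every count of called members (0 of 9) as it was, and of these settings only the DESeq2 test called any gene (2 to 87 genes). A fit of only the 4 libraries compared gave 2 of 9 for SGC-CBP30 against Ctrl PIP, beside 15.8% of the 15660 genes tested there. It gave 0 of 9 in the other comparisons it was run for. Optn had the fewest counts (64 to 328), and its replicates differed by -1.46 log2 units with DMSO and -2.11 with EnPGC-1 but by 0.15 and 0.16 with Ctrl PIP and SGC-CBP30. Whether depth limits any member was not tested.

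Same-numbered libraries deviated together between DMSO and EnPGC-1 (correlation 0.67) but not in every pair of groups (-0.25 to 0.23 in the others), so the numbers were not taken to pair the libraries. With the replicate block, 0 of 9 members and 0 of all genes were called in every comparison, as without it, and 1 of 54 signs changed, in Ctrl PIP against DMSO Bnip3 0.59. With the length and GC offset, these log2 fold changes took the opposite sign: in EnPGC-1 against Ctrl PIP Fundc1 -0.0127, Sqstm1 3.75e-06, and in Ctrl PIP against DMSO Bnip3 0.045, and in EnPGC-1 against SGC-CBP30 Tbk1 -0.0101. With that offset and the replicate block together, the opposite sign was found in EnPGC-1 against Ctrl PIP Fundc1 -0.0158, Sqstm1 0.000165, and in SGC-CBP30 against DMSO Bnip3 0.0414, Fundc1 0.000863, and in Ctrl PIP against DMSO Bnip3 0.60, and in EnPGC-1 against SGC-CBP30 Tbk1 -0.01.

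Without both libraries numbered 1 of DMSO and EnPGC-1 (added after seeing the data), calls are not given, since each of these groups then has 1 library. These log2 fold changes took the opposite sign: in EnPGC-1 against Ctrl PIP Bnip3l 0.0354, Sqstm1 0.0217, and in Ctrl PIP against DMSO Pink1 0.0451, Fundc1 -0.15, Optn 0.46, Map1lc3b 0.0275, Ulk1 0.30, Tbk1 0.0033, and in EnPGC-1 against SGC-CBP30 Optn -0.64, Tbk1 -0.0472. Without both numbered 2 the members called were 3 of 9 for EnPGC-1 against Ctrl PIP, 1 for Ctrl PIP against DMSO, 2 for EnPGC-1 against SGC-CBP30, 1 for SGC-CBP30 against Ctrl PIP and 3 for any difference. DMSO and EnPGC-1 then had 1 library each too, so calls in tests with them cannot decide a group difference. Only SGC-CBP30 against Ctrl PIP kept 2 libraries per group, and there 10.7% of all genes were called beside that 1 member. These log2 fold changes took the opposite sign: in EnPGC-1 against DMSO Pink1 -0.0455, and in EnPGC-1 against Ctrl PIP Fundc1 -0.17, and in SGC-CBP30 against DMSO Bnip3 1.69, Fundc1 0.0946, Optn -0.32, and in Ctrl PIP against DMSO Bnip3 2.17, Bnip3l 0.12, and in EnPGC-1 against SGC-CBP30 Pink1 -0.0507, Fundc1 -0.0354, Map1lc3b -0.0174. The cause was not tested.

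Leaving out each library in turn called 0 of 9 members and 0 of all genes in every comparison, and changed the sign of the following log2 fold changes. In EnPGC-1 against DMSO the ranges were Bnip3 -2.71 to 0.86, Bnip3l -0.26 to 0.045, Fundc1 -0.15 to 0.26, Optn -0.39 to 1.97, Ulk1 -0.0738 to 0.69. In EnPGC-1 against Ctrl PIP the ranges were Bnip3l -0.24 to 0.14, Fundc1 -0.17 to 0.22, Sqstm1 -0.0592 to 0.0168. In SGC-CBP30 against DMSO the ranges were Bnip3 -1.40 to 1.68, Fundc1 -0.27 to 0.0922, Optn -0.33 to 1.17. In Ctrl PIP against DMSO the ranges were Pink1 -0.42 to 0.0615, Bnip3 -0.92 to 2.16, Bnip3l -0.25 to 0.12, Fundc1 -0.14 to 0.22, Optn -1.03 to 0.47, Map1lc3b -0.0853 to 0.0439, Ulk1 -0.45 to 0.32, Tbk1 -0.055 to 0.0198. In EnPGC-1 against SGC-CBP30 the ranges were Pink1 -0.0575 to 0.11, Fundc1 -0.0423 to 0.35, Sqstm1 -0.15 to 0.0535, Optn -0.63 to 1.49, Map1lc3b -0.0242 to 0.34, Tbk1 -0.0455 to 0.11. In SGC-CBP30 against Ctrl PIP the ranges were Fundc1 -0.28 to 0.0226, Sqstm1 -0.0717 to 0.14.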
